A study of Mus musculus with 6 samples.

Results

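The genes described here are 29 genes of the enteric nervous system, the nerve cells and glia within the gut wall. They were chosen by symbol, with earlier results of these data known, and each was read from the row of the expression table annotated with that symbol alone. All 29 had 1 such row, of 19938 genes that had at least 1. They were measured in colon of 3 control mice, labelled wild type, and 3 VilCre;Ihhflox/flox mice. In the latter, villin-driven Cre, active in gut epithelium, removes Ihh, which encodes the secreted ligand Indian hedgehog, so neurons and glia themselves are not the target of the deletion. The mice were harvested at postnatal day 12 by the series' design text and at day 9 to day 12 by the growth protocol, and whether controls carried the floxed allele or the Cre is not given in the labels. Each mutant had a control littermate of the same number, which made 3 litters and 6 Affymetrix Mouse Gene 1.0 ST arrays. The question was how these genes of nerve and glia stand in colon when the epithelium lacks the ligand.

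Enteric neurons and glia arise from neural crest cells that migrate along the gut before birth. Their survival and spread depend on the receptor Ret and its co-receptors, which bind ligands of the GDNF family from the gut mesenchyme, and on endothelin 3 acting on Ednrb. Sox10 keeps crest cells and glia in their state, while Phox2a and Hand2 take part in the neuronal fate. Mature neurons are recognised by neurofilaments, peripherin, Hu proteins (Elavl genes) and synaptic proteins, and enteric glia by S100b, Gfap and Sox10. Mice without Ihh in the whole body have been described with missing enteric ganglia in parts of the gut, which is the background to looking at these genes here.

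Expression values are log2 RMA values, a change is mutant minus control averaged over the 3 litters, and ± beside a change is its standard error in a limma fit over all genes with the litter as a block. A gene was called when its Benjamini-Hochberg adjusted p was under 0.05. Array medians lay between 7.10 and 7.14. Ihh averaged 8.57 ± 0.0946 (SD, n = 3) in controls against 8.27 ± 0.0850 (SD, n = 3) in mutants, and its change did not pass (adjusted p = 0.139). The hedgehog response genes Ptch1, Gli1 and Hhip fell by 1.44, 0.78 and 2.16. Epithelial genes were read as a check that the tissue was intestine. Epcam, an epithelial adhesion protein, was between 11.68 and 11.87 and Cdx2, a factor of intestinal identity, between 9.31 and 10.15 on the 6 arrays. These genes do not tell colon from other parts of the intestine. The table holds no background level for an array, so whether a dim gene was detected is unknown. Among the 29, Foxd3, Dbh, Nefm, S100b, Gfap and Cdh19 were in the dimmest 30% of all genes, where a change may be understated.

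Of the 29 enteric genes 1 was called lower, Cryab, and 0 were called higher. Over all genes tested, 2.11% were called lower and 1.66% higher, so these counts are near the background. At an unadjusted p under 0.05, 4 genes were lower (Cryab, Fabp7, Ednrb and Syt1) and 1 was higher (Gfra3), beside 8.03% and 7.05% of all genes. All mutants lay below all controls in 6 of 29 genes, namely Cryab, Fabp7, Ednrb, Syt1, L1cam and Foxd3 (in Foxd3 by less than 0.01), and above all controls in 0. The same held for 9.78% and 10.0% of all genes. The median change over the 29 was -0.09, from -0.61 to 0.26, against 0.01 over all genes. In whole tissue, fewer cells of a type and less RNA per cell cannot be told apart.

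**Figure D1:**
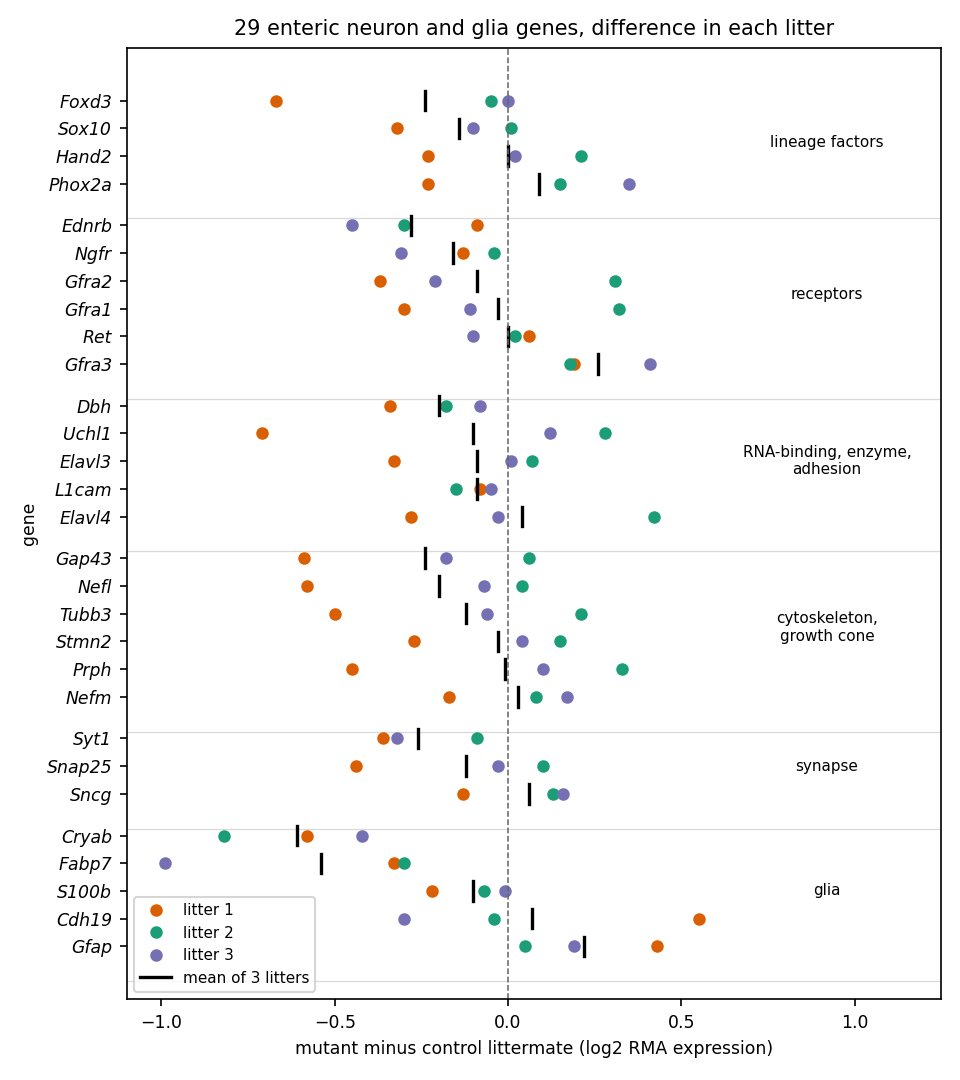
Difference between mutant and control littermate for each of the 29 genes, in log2 units, with 1 point per litter, a black bar at the mean of 3 litters, and genes grouped by role. Cryab and Fabp7 lie left of 0 in every litter, while most neuronal genes lie left of 0 in litter 1 and on either side of it in litters 2 and 3.

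The glial genes held both of the largest changes. Cryab encodes alpha B-crystallin, a small heat shock protein that enteric glia make and that muscle cells make as well. Controls 1 to 3 measured 9.58, 9.59 and 9.59, and mutants 1 to 3 measured 9.00, 8.77 and 9.17. The controls were nearly equal, and every mutant lay below all of them. The fall was 0.61 ± 0.10 on the log2 scale, or 1.52-fold, with adjusted p = 0.0176. Leaving out 1 litter at a time gave adjusted p values from 0.0110 to 0.0437, whereas a fit over all rows of the table, unnamed ones included, ended the call (0.169).

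Smooth muscle markers were lower in mutants as well, and the skeletal muscle markers were mixed. Of 11 smooth muscle markers 7 were called lower and 0 higher, with a median of -0.55, and Cnn1 (calponin) fell by 0.72 ± 0.12. All 11 were lower in the mutant of every litter. Their summed level on the linear scale was 46175 to 48484 in controls and 31896 to 40273 in mutants. Of 6 skeletal muscle markers 0 were called in either direction, and the median change was 0.03. Among them 1 was in the dimmest 30% of genes. At an unadjusted p under 0.05, 2 were lower and 0 higher. These were Ckm (-0.35 ± 0.08, adjusted p = 0.0711) and Tnnt3 (-0.28 ± 0.10, adjusted p = 0.21), lower in every litter without overlap of the groups. Of the others 2 were higher in every litter and 2 were mixed. The summed level of the 6 was 1533 to 1699 in controls and 1441 to 1518 in mutants. By litter, Cryab stood at -0.58, -0.82 and -0.42, and the smooth muscle median at -0.76, -0.52 and -0.31. The part of muscle cells in the fall of Cryab was not tested.

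Fabp7, a fatty acid binding protein of glial precursors and enteric glia, was at 7.08, 7.01 and 7.27 in controls and at 6.75, 6.71 and 6.28 in mutants. All mutants were below all controls, and mutant 3 was the lowest by a wide margin. The change was -0.54 ± 0.14 and did not pass (adjusted p = 0.0836). It passed without litter 2 (0.0118) and was farthest from passing, among fits that left out a litter, without litter 3 (0.322).

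The groups overlapped in the other 3 glial genes. Gfap, an intermediate filament protein of glia, was at 5.68, 6.24 and 6.17 in controls and at 6.12, 6.29 and 6.36 in mutants. It was higher in the mutant of each litter, by 0.43, 0.05 and 0.19, but the groups overlapped and its change of 0.22 ± 0.10 did not pass (adjusted p = 0.336). S100b, a calcium-binding protein used as a general glial marker, had means of 5.89 ± 0.0914 and 5.79 ± 0.0414 (SD, n = 3 each) and a change of -0.10 ± 0.09. By litter it differed by -0.22, -0.07 and -0.01, below 0 in all 3. Cdh19, a cadherin of crest-derived glia and Schwann cells, went opposite ways, at 0.55 in litter 1, -0.04 in litter 2 and -0.30 in litter 3. Among 15 measured genes of a second glia and Schwann cell list, 0 were called, with 1 lower and 1 higher at an unadjusted p under 0.05. These were Art3, a surface protein of the ADP-ribosyltransferase family (-0.34 ± 0.09, adjusted p = 0.0855), and Scn7a, a sodium channel of glia (0.40 ± 0.10, adjusted p = 0.0808). The next smallest p was that of the potassium channel gene Kcna1, at -0.16 ± 0.09. The median of that list was -0.03.

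**Figure D2:**
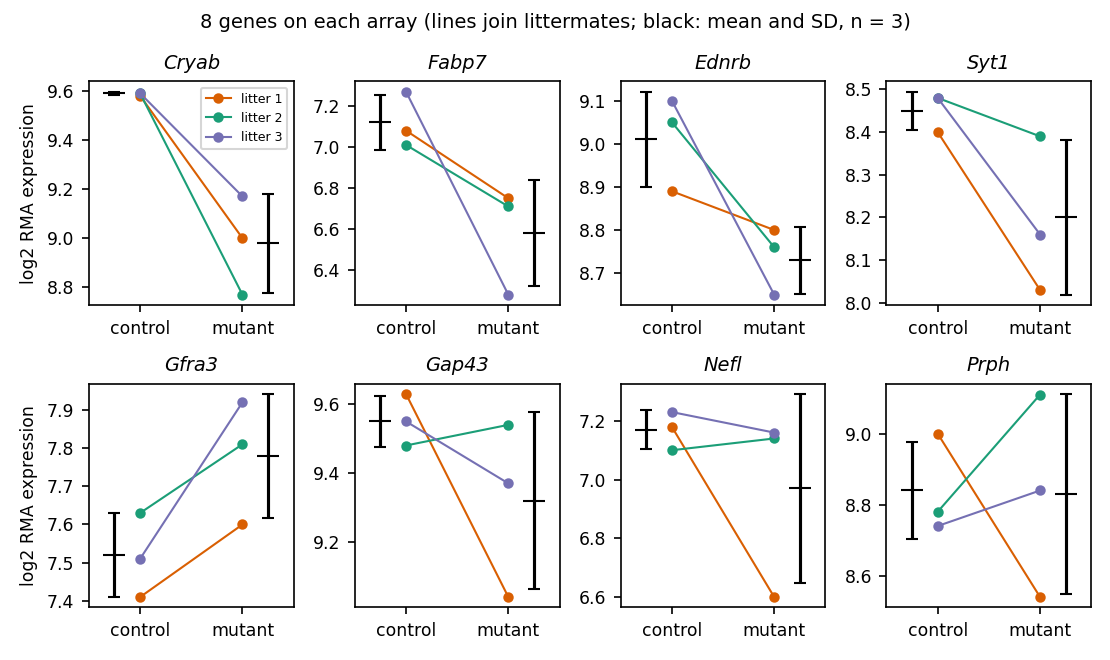
Log2 RMA expression of 8 genes on each array, with lines that join littermates and black marks for the mean and SD of 3 mice; each panel has its own vertical axis, which does not start at 0. Cryab, Fabp7, Ednrb and Syt1 show no overlap between the groups, Gfra3 is higher in each mutant than in its littermate, and Gap43, Nefl and Prph drop in litter 1 alone by more than 0.4.

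Of the 4 transcription factors of the lineage 0 passed in the limma fit, and 0 had an unadjusted p under 0.05. Sox10, which crest cells and glia need, was at 8.00, 7.93 and 8.00 in controls and at 7.68, 7.94 and 7.90 in mutants. Mutant 1 was the lowest array and the other mutants lay within or just below the controls, for a change of -0.14 ± 0.09 (adjusted p = 0.587). Foxd3, a repressor that maintains crest progenitors, was at 6.74, 6.36 and 6.34 in controls and at 6.07, 6.31 and 6.34 in mutants. Its change of -0.24 ± 0.13 came mostly from litter 1 (-0.67). Phox2a, a homeodomain factor of autonomic neurons, was at 6.83, 6.84 and 6.53 in controls and at 6.60, 6.99 and 6.88 in mutants, with the groups interleaved. Hand2, a basic helix-loop-helix factor of enteric neurons that gut mesenchyme also expresses, had a mean of 8.04 in both groups.

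Among 7 measured genes of a second list of lineage regulators, 1 was called. Zeb2, the zinc finger factor whose loss in crest cells disturbs enteric nerve formation and which mesenchyme also expresses, was at 9.39, 9.49 and 9.69 in controls and at 9.00, 8.74 and 8.80 in mutants. All mutants were below all controls, and it fell by 0.68 ± 0.11 (adjusted p = 0.0174). Tbx3 (-0.43 ± 0.09, adjusted p = 0.0517) and Isl1 (-0.45 ± 0.11, adjusted p = 0.0756) were lower in the mutant of each litter and did not pass.

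Of the 6 receptors 0 passed in the limma fit, and at an unadjusted p under 0.05 there was 1 lower, Ednrb, and 1 higher, Gfra3. Ednrb, the endothelin receptor of migrating crest cells, which vessels and stroma also express, was at 8.89, 9.05 and 9.10 in controls and at 8.80, 8.76 and 8.65 in mutants. The groups did not overlap, and the change was -0.28 ± 0.09 with adjusted p = 0.193. Of 5 blood endothelium markers 4 were called lower and 0 higher, and all 5 were lower in the mutant of every litter. Their summed linear levels were 1982 to 2445 in controls and 1596 to 1616 in mutants. The part of vessels in the Ednrb values was not tested.

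Gfra3, the co-receptor for artemin, was at 7.41, 7.63 and 7.51 in controls and at 7.60, 7.81 and 7.92 in mutants. Mutant 1 lay below control 2, so the groups overlapped, although each mutant was above its littermate. The change was 0.26 ± 0.09 (adjusted p = 0.188). Artn, the gene of its ligand, was higher in the mutant of each litter too, by 0.24 ± 0.09, and did not pass (adjusted p = 0.259). Ngfr, the low-affinity neurotrophin receptor of crest cells and glia, was at 7.80, 7.94 and 7.94 in controls and at 7.67, 7.90 and 7.63 in mutants, a change of -0.16 ± 0.09.

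Ret, the tyrosine kinase receptor of the GDNF family, had a mean of 8.68 in both groups, with an SD of 0.0732 in controls and 0.159 in mutants (n = 3 each). Gfra1, the co-receptor for GDNF, differed by -0.30, 0.32 and -0.11 in litters 1 to 3. Gfra2, the co-receptor for neurturin, differed by -0.37, 0.31 and -0.21. The litters thus went opposite ways in both co-receptors, and the SD of Gfra2 was 0.374 in mutants against 0.0409 in controls.

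Among 12 measured neurotrophic ligands and further receptors, 1 was called lower and 0 were called higher. Nrg1, neuregulin 1, a signal for crest cells and glia through Erbb3, was at 7.77, 7.82 and 7.68 in controls and at 6.75, 7.11 and 7.08 in mutants. No mutant reached the controls, and it fell by 0.77 ± 0.10 (adjusted p = 0.00752). Gdnf, the ligand for Ret that gut mesenchyme secretes, was at 8.21, 8.36 and 8.09 in controls and at 7.95, 7.82 and 7.74 in mutants. The groups did not overlap, and the change of -0.38 ± 0.09 missed the threshold (adjusted p = 0.0619), with values from 0.0440 to 0.276 under 11 other settings. The neurotrophin receptor gene Ntrk3 stood at -0.22 ± 0.08 (adjusted p = 0.251). The median of the 12 was -0.03.

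The 14 genes of neuronal structure and synapse gave no call, and 1 of them, Syt1, was lower at an unadjusted p under 0.05. Syt1, synaptotagmin 1, the calcium sensor of vesicle release, was at 8.40, 8.48 and 8.48 in controls and at 8.03, 8.39 and 8.16 in mutants. All mutants were below all controls, by little in the case of mutant 2. The change was -0.26 ± 0.09 with adjusted p = 0.214.

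L1cam, an adhesion molecule that crest cells and axons use, was at 8.55, 8.59 and 8.52 in controls and at 8.47, 8.44 and 8.47 in mutants. The groups were close but separate, and the change was -0.09 ± 0.08 (adjusted p = 0.697). Dbh, dopamine beta-hydroxylase of noradrenergic cells, was at 5.93, 6.17 and 5.90 in controls and at 5.59, 5.99 and 5.83 in mutants, lower in each litter by 0.34 down to 0.08, with adjusted p = 0.344. Elavl3 and Elavl4, the neuronal Hu RNA-binding proteins, had changes of -0.09 ± 0.10 and 0.04 ± 0.13. For Elavl3 the arrays were at 7.06, 6.93 and 6.78 in controls and at 6.72, 7.00 and 6.79 in mutants, which overlap. Uchl1, the ubiquitin hydrolase PGP9.5, a general neuronal marker that endocrine cells share, ranged more widely, with differences of -0.71, 0.28 and 0.12 in litters 1 to 3.

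The cytoskeletal genes were all lower in the mutant of litter 1, and 0 of 6 were lower in that of litter 2. Gap43, a growth cone protein, was at 9.63, 9.48 and 9.55 in controls and at 9.04, 9.54 and 9.37 in mutants. Nefl, the light neurofilament chain, was at 7.18, 7.10 and 7.23 in controls and at 6.60, 7.14 and 7.16 in mutants. Tubb3, the neuronal beta-tubulin, was at 7.22, 7.08 and 7.15 in controls and at 6.72, 7.28 and 7.09 in mutants. In all 3 genes mutant 1 was the lowest array and the other mutants lay among or near the controls. Their changes were -0.24 ± 0.12, -0.20 ± 0.12 and -0.12 ± 0.13, with adjusted p values of 0.442, 0.533 and 0.790. Prph, the peripherin filament of peripheral neurons, stood at -0.01 ± 0.14, Stmn2, a growth cone stathmin, at -0.03 ± 0.10 and Nefm, the medium neurofilament chain, at 0.03 ± 0.09.

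In the synaptic group Snap25, a protein of vesicle fusion, was at 7.82, 7.72 and 7.58 in controls and at 7.39, 7.82 and 7.54 in mutants, and Sncg, gamma-synuclein, was at 9.83, 9.44 and 9.42 in controls and at 9.70, 9.57 and 9.59 in mutants. Both sets overlapped, and neither change passed (-0.12 ± 0.11 and 0.06 ± 0.09).

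Litter 1 stood apart from the other litters across these genes. Its mutant was below its control in 25 of 29 genes, against 10 of 29 in litter 2 and 19 of 29 in litter 3. Over all genes the shares were 48.8%, 49.9% and 48.4%. Litters 1, 2 and 3 had medians over the 29 of -0.30, 0.06 and -0.05. Mutant 1 was the lowest of the 6 arrays in 14 of 29 genes, which happened in 20.0% of all genes.

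The pattern was clearest in the 14 genes of neuronal structure and synapse. In litter 1 all 14 were lower in the mutant, in litter 2 it was 3 and in litter 3 it was 8. Mutant 1 was the lowest array in 10 of the 14. Their median difference was -0.35, 0.09 and -0.03 in litters 1 to 3. Relative to each gene's own mean, controls 1 to 3 had medians over the 14 of 0.16, 0.04 and -0.03, and mutants 1 to 3 had -0.29, 0.11 and -0.05. By these medians control 1 was the highest array and mutant 1 the lowest. Gene by gene, control 1 was the highest array in 5 of the 14. Among the 5 glial genes mutant 1 was the lowest array in 0, and Cryab and Fabp7 were lowest in mutant 2 and mutant 3. In Sox10, which glia also express, and in 6 of 15 genes of the second glia and Schwann cell list, mutant 1 was the lowest. Of those 15 genes 11 were lower in the mutant of litter 1, 7 in litter 2 and 5 in litter 3.

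**Figure D3:**
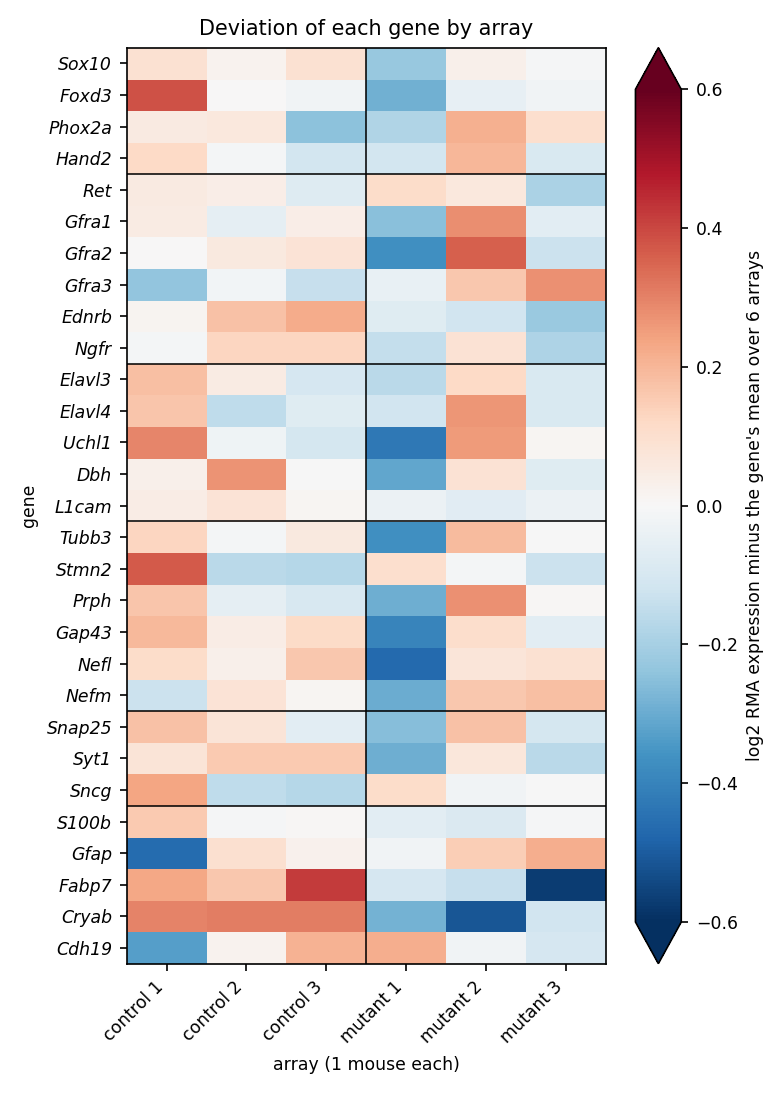
Log2 RMA expression of each of the 29 genes minus its own mean over the 6 arrays, with 1 column per mouse, blue for below and red for above the mean, and horizontal lines between role groups; colours end at 0.6 in each direction. The column of mutant 1 is blue for most neuronal genes, that of mutant 2 is mostly red, and Cryab is red in all controls and blue in all mutants.

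Without litter 1, 14 of the 29 genes were lower and 15 higher, with a median of 0.03, whereas 22 were lower and 7 higher over all 3 litters. Cryab was the 1 gene called in that fit as well. The median of the 29 was -0.20 without litter 2 and -0.12 without litter 3. Litter 1 was singled out by these same values, so its removal is no separate test of the pattern. A second list of 19 measured pan-neuronal genes ran the same way by litter, with medians of -0.20, 0.12 and -0.02 and 18 of 19 lower in litter 1. Syp, synaptophysin, is an example, with differences of -0.52, 0.19 and 0.02. The list was read on the same mice, so it is no separate test either. The pattern of litter 1 rests on 1 mutant and 1 control. Across that list control 1 was the highest array in 10 of 19 genes and mutant 1 the lowest in 7. Over all 19938 genes these counts were 3734 and 3992.

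Other cell types were measured in the same arrays. Of 5 markers of interstitial cells of Cajal 1 was called, Ano1, lower by 1.31 ± 0.13, while Kit stood at 0.01 ± 0.09. Of 5 leukocyte markers measured 1 was called higher and 0 were called lower. Smooth muscle markers were lowest in mutant 1 in 10 of 11 cases but lower in the mutant of every litter. Mesothelium, the outer lining of the gut, had 5 of 5 markers measured. Among them 1 was called higher, Upk1b (0.57 ± 0.11), and 0 were called lower. Their summed linear levels were 704 in control 1 and 417 and 452 in controls 2 and 3. In mutants 1 to 3 the sums were 781, 599 and 536. Of 8 markers of enteroendocrine cells, which also make Uchl1 and Snap25, 4 were called higher and 7 were higher in every litter. Their sums were 4561 to 4895 in controls and 8428 to 11586 in mutants. Such a sum weighs bright genes most, and Gcg had the largest change (1.99 ± 0.11), with means of 10.19 in controls and 12.18 in mutants. Chga (0.17 ± 0.09), Chgb (0.38 ± 0.09), Neurod1 (0.15 ± 0.09) and Scg5 (0.02 ± 0.10) did not pass. The sums of 10 epithelial markers overlapped (38323 to 41120 in controls and 38346 to 41479 in mutants). The part of these cell types in the litter pattern was not tested.

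**Figure D4:**
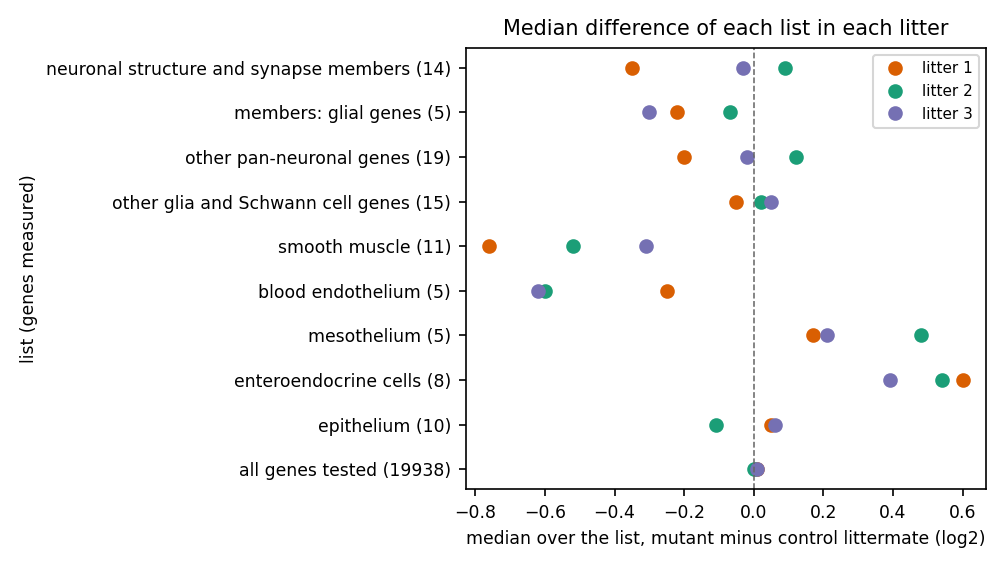
Median difference between mutant and control littermate over each list of genes, in log2 units, with 1 point per litter; the number of genes measured is given after each name. The neuronal lists spread from below 0 in litter 1 to above 0 in litter 2, whereas smooth muscle and blood endothelium lie below 0 in every litter and all genes tested sit within 0.01 of it.

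Of the 19 pan-neuronal genes 1 was called, Ncam1, as lower. Ncam1, a neural cell adhesion molecule that developing muscle and mesenchyme also carry, was at 9.72, 9.65 and 9.72 in controls and at 8.54, 8.79 and 8.51 in mutants. It fell by 1.08 ± 0.10 (adjusted p = 0.00165), and its mutants lay far below its controls. Cntn1, contactin 1, an axonal adhesion protein, was lower in each mutant too, at -0.37 ± 0.09 (adjusted p = 0.0671). Cplx1, complexin 1, a protein of vesicle fusion, had the next smallest p and stood at 0.13 ± 0.11.

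Of 12 neurotransmitter genes measured, 1 was called lower and 1 was called higher. Calb2, calretinin of excitatory enteric neurons, was at 8.42, 8.13 and 7.94 in controls and at 7.25, 7.46 and 7.13 in mutants, a fall of 0.88 ± 0.11 (adjusted p = 0.00649). Tac1, the substance P precursor, which endocrine cells can also make, was at 8.12, 7.72 and 7.80 in controls and at 8.67, 8.84 and 8.71 in mutants, a rise of 0.86 ± 0.11 (adjusted p = 0.00820). Neither gene overlapped between the groups. Vip, vasoactive intestinal peptide of inhibitory enteric neurons, had the next smallest p. It was at 8.22, 7.59 and 7.67 in controls and at 7.23, 7.47 and 7.36 in mutants. All mutants were below all controls, control 1 was the highest array by a wide margin, and the change of -0.47 ± 0.16 did not pass (adjusted p = 0.179). Without litter 2 it passed, at 0.0137, the lowest of 11 other settings, which reached 0.475. Nos1, the enzyme of nitrergic neurons, had differences of -0.83, 0.45 and 0.07.

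Promoter sequence could be shown for some of the genes. A RefSeq table on GRCm38.p6 held 23 windows of 300 bases (250 before to 50 after a transcript start) for 18 of the 29 genes. It was searched on both strands for GACCACCCA, the motif of the GLI factors of the hedgehog pathway, AACAAAG, a motif of SOX factors, CAGCTG, an E-box of proneural factors, and TATAAA, the TATA box. None of these motifs contains another, and 2 windows of Elavl4 overlap and share an E-box. The GLI motif was in 0 of 23 windows and in 0.253% of all 32851 windows. The SOX motif was in 1 of 23 (5.85% of all), the E-box in 6 of 23, from 5 genes (16.3% of all), and the TATA box in 2 of 23 (13.6% of all). Windows of 2 genes are printed: Fabp7, because its change was the largest among genes with a window, and Syt1, because its window was the only 1 of the 23 with a SOX motif. Cryab had no window there. Capitals mark matches, the SOX motif being read on the opposite strand.
Fabp7, chr10:57784673-57784972, plus strand: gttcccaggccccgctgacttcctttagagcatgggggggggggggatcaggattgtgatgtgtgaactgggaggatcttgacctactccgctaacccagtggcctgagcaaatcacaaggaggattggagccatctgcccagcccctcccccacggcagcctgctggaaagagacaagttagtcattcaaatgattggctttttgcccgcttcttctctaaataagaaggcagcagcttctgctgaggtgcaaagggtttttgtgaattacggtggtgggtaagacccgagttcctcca
Syt1, chr10:109009062-109009361, minus strand: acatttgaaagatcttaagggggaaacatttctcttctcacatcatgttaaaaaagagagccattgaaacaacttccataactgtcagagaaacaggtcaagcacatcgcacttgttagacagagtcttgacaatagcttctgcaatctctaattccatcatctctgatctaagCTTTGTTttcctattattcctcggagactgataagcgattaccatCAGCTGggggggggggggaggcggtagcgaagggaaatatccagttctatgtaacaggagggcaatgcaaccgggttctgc
The Fabp7 window held none of the 4 motifs, and the Syt1 window held the SOX motif and the E-box. Syt1 had another window upstream without a match. A match describes letters and not a bound site, and the arrays measured no binding.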

How the data were processed

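Colon RNA of 6 mice was hybridised to 1 array each. The deposited values are log2 expression made by the authors with RMA, per the submitters' processing notes; no label used here names its version or the genome build. The table had 35557 rows, of which 21789 had 1 gene symbol in the platform annotation of GEO, 1621 several and 12147 none. For 999 genes with several rows the row with the highest mean was kept, which left 19938 genes. No enteric gene of the 29 had more than 1 row.

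The difference between mutant and control was fitted in R 4.3.3 by limma 3.58.1 (lmFit, eBayes, two-sided, adjusted over 19938 genes), with the litter as a fixed block, because the series' design text calls same-numbered mice littermates. Their deviations from group means correlated by 0.0128, 0.00516 and 0.0613 over genes. The fit has 2 residual degrees of freedom, to which the prior adds 5.85. The number of arrays, 3 a group, limits the precision. The fit was tested on simulated data.

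The members and lists were chosen with earlier results of these data known. All 29 members are named. Values by array are given for up to 3 of each role group with the smallest p and for those with p under 0.05. Of the 5 other enteric lists, each called gene and up to 3 genes with the smallest p are named. The lists of other cell types are given by counts, medians or sums, and not every called gene of theirs is named. Syp, Nos1 and the skeletal muscle, enteroendocrine, mesothelial and interstitial cell genes were named after their values were seen. Alternatives are given in the closing section.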

Additional observations from a re-analysis of the deposited data

How the results depend on the processing

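Cryab was called in 10 of 11 alternatives. Without the replicate block, 1 enteric gene, 638 of all genes and 5 of the other enteric lists were called, against 1, 751 and 5 with it, and the block changed no call of an enteric gene. The fit over all rows called 2 of 35557 rows, a count of rows and not of genes, with 0 of the 29 and 0 of the other lists. Its prior had 3.01 degrees of freedom against 5.85. Without the dimmest 30% of genes the other lists had 8 calls. Leaving out a litter gave 1 to 2 calls among the 29, Fabp7 being the second without litter 2, and 5 to 8 in the other lists. The following genes, none of them called, changed sign when a litter was left out. The changes ranged from -0.11 to 0.11 for Hand2, -0.20 to 0.11 for Gfra1, -0.29 to 0.05 for Gfra2, -0.16 to 0.04 for Elavl3 and -0.30 to 0.20 for Uchl1. They ranged from -0.28 to 0.07 for Tubb3, -0.12 to 0.09 for Stmn2, -0.18 to 0.21 for Prph, -0.24 to 0.03 for Snap25 and -0.17 to 0.25 for Cdh19. They ranged from -0.15 to 0.20 for Elavl4, -0.04 to 0.25 for Phox2a, -0.04 to 0.04 for Ret and -0.04 to 0.13 for Nefm, which also stood at -3.7e-03 after quantile normalization. The median change of the 29 was -0.20 to 0.03 over these fits. Signal over background was not in the table, so the dim genes are the least certain.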
